A study of Mus musculus with 4 samples.

Results

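The genes followed here are 30 that respond to low oxygen or control that response, in tumour-associated macrophages from mice on a high-fat diet (HFD) and mice on a control diet (CD). They were picked by symbol, with earlier results of these data known. Each symbol was matched through its Ensembl mouse identifier to 1 of the 53379 rows of the count table, and a row was found for all 30. The macrophages had been sorted as positive for CD45, CD11b and F4/80 from tumours of MC38, a mouse colon carcinoma line, implanted in C57BL/6J mice 21 days earlier. HFD and CD each comprised 2 mice. Diet is the only difference between them that the labels give, and all 4 mice carried the same tumour model and went through the same sort. The comparison asks which transcripts of these cells differ with the diet of the host.

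Cells sense oxygen through prolyl hydroxylases of the EGLN family, which use it to hydroxylate the alpha subunits of the hypoxia-inducible factors (HIFs). The hydroxylated subunit is bound by the von Hippel-Lindau protein and degraded. When oxygen is scarce the subunit persists, pairs with ARNT and binds a short core sequence near genes of glucose uptake, mitochondrial turnover, pH control and collagen modification. In macrophages HIF-1 alpha also accumulates after inflammatory stimuli at normal oxygen, and in tumours macrophages are found in poorly perfused regions.

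The core that HIFs bind was searched as ACGTG and GCGTG on both strands. Promoters, from 250 bases before to 50 bases after the start of a transcript, were taken from RefSeq (GRCm38.p6) for 25 of the 30 genes, with the most upstream start where there were several. Bnip3l, Ndrg1, Epas1, Plod2 and Bhlhe40 had no match in that table. Shown are the promoters of the 4 genes that rose in the HFD libraries and had a match, and that of Slc2a1, a glucose transporter gene that was not called. Capitals mark each match, so that CACGT and CACGC are the cores read on the other strand. Bnip3 lies at chr7:138909457-138909756 (minus strand), Ak4 at chr4:101419039-101419338 (plus strand) and Ero1l, which RefSeq lists as Ero1a, at chr14:45318523-45318822 (minus strand). Car9 lies at chr4:43506776-43507075 and Slc2a1 at chr4:119108495-119108794 (both plus strand).
Bnip3: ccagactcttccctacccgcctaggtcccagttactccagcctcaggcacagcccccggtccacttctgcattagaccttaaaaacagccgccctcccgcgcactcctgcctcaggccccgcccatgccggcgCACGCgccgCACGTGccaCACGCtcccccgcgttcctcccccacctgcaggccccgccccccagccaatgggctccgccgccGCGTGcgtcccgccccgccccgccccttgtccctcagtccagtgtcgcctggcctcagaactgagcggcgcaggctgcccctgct
Ak4: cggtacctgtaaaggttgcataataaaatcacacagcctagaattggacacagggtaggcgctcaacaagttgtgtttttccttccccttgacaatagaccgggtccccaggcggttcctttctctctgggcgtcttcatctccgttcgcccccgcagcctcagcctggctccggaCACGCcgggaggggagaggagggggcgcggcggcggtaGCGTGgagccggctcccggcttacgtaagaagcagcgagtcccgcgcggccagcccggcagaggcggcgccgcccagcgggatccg
Ero1l: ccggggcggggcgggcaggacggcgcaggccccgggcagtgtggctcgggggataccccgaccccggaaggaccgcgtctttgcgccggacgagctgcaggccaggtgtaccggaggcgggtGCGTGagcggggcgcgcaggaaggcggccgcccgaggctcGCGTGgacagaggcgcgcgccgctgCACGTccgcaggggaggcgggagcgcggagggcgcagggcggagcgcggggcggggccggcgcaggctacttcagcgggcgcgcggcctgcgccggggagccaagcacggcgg
Car9: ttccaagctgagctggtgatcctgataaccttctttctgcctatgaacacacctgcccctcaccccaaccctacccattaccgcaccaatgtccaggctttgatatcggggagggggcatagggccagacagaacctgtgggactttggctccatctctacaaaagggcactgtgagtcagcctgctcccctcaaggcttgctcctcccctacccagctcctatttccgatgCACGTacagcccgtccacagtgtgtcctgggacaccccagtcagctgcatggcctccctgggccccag
Slc2a1: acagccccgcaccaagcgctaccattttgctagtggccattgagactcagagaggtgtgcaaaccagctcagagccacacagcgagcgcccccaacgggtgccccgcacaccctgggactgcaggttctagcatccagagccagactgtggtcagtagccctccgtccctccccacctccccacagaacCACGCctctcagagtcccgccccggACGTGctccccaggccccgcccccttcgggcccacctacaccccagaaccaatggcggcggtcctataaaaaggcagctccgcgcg

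The promoter of Bnip3 held 2 matches to ACGTG, which are 1 palindrome, CACGTG, read on both strands, and 3 to GCGTG. Ero1l had 1 match to ACGTG and 2 to GCGTG, Ak4 had 2 to GCGTG, and Slc2a1 had 1 to each. Car9 held 1 match, to ACGTG, whose first base lies 18 bases before the RefSeq start. The gene positions given further on are those of GENCODE, which begins Car9 and Ero1l further upstream, so their matches lie inside those positions. Of the 25 promoters, 22 (88.0%) held either core, against 43.8% of 27025 promoters of the same length, 1 per gene. ACGTG was in 17 of 25, against 19.6% of all promoters, and GCGTG in 16 of 25, against 32.5%. The 25 were also richer in G and C, with a median of 66.7%, against 52.7% over all promoters. Gbe1, Mxi1 and Vhl held neither core in this window. A match is a string of letters and not a measured binding site, and the genes were picked as hypoxia genes, so the shares describe the list.

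Libraries held 34148682 to 37159552 counts, and all 30 genes were among the 18422 that passed the filter on low counts. Levels are CPM, counts per 1000000 of the TMM-scaled library size. The test is edgeR's quasi-likelihood test, HFD minus CD, and a gene is called at a Benjamini-Hochberg adjusted p below 0.05 over all 18422 genes. Of 9 macrophage markers edgeR called 0 (2 had an unadjusted p below 0.05, and DESeq2 called 0), and their levels summed to 9888 and 10103 CPM in the HFD mice, against 10039 and 10829.5 CPM in the CD mice. Fibroblast markers were called higher in 5 of 10 cases, and 6 of 7 tested neutrophil markers and 8 of 9 tested epithelial markers were called lower. Cycling markers were called higher in 3 of 5 cases and summed to 1223 and 1052 CPM in the HFD mice, against 472 and 889.8 CPM in the CD mice; their part in the values of the hypoxia genes was not tested. Mitochondrially encoded transcripts took 2.67 and 1.59% of the counts in the HFD mice, against 0.757 and 1.2% in the CD mice. In sorted bulk samples fewer cells of a type and less RNA per cell cannot be told apart.

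Of the 30 hypoxia genes, 6 were called higher in the HFD libraries and 0 lower. They were Bnip3, Plod2, Ak4, Ero1l, Bnip3l and Car9, and their folds ran from 1.67 to 2.75. Over all tested genes 2.61% were called higher and 7.91% lower. Without adjustment 10 of the 30 were higher and 3 lower at p below 0.05, against 13.6% and 17.7% of all tested genes, and DESeq2 called 7 higher and 1 lower, against 5.87% and 10.9%. Log2 fold changes were positive in 21 of the 30, against 50.4% of all tested genes. In 14 of the 30 both HFD libraries lay above both CD libraries, against 32.2% of all tested genes, and in 5 both lay below, against 31.6%. The median log2 fold change of the 30 was 0.31, and that of all tested genes was 0.0050. Because the 30 were chosen with earlier results of these data known, these counts and shares describe the list. Of the 6 calls, 3 were genes of mitochondria, 2 of collagen and protein folding in the endoplasmic reticulum and 1 of pH control, and none was a gene of the sensing machinery. Of the 4 transcription factor, oxygen sensing and degradation genes other than Hif1a none reached an unadjusted p of 0.05.

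**Figure D1:**
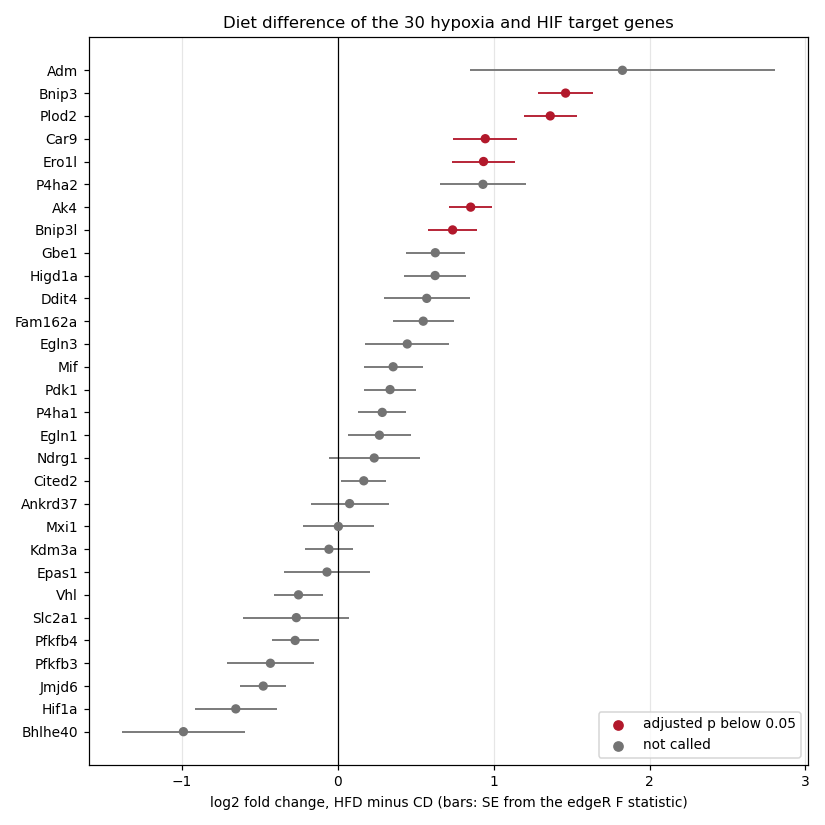
Log2 fold change (HFD minus CD, x axis) of the 30 genes, one per row, with the standard error as a bar and the 6 called genes in red. The called genes lie between 0.74 and 1.46, and Adm, at 1.83 with a standard error of 0.98, lies above them without a call.

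Without HFD mouse 1 none of the 6 was called (adjusted p from 0.0569 to 0.204), with log2 fold changes of 0.71 to 1.48. Without HFD mouse 2 Plod2 was called (adjusted p = 0.041) and the other 5 were not, with log2 fold changes of 0.70 to 1.48 over the 6. Over all genes those fits, whose spread between mice comes from the CD pair alone, called 17 genes (0.0923%) and 52 genes (0.282%) higher. Without CD mouse 1 all but Bnip3l (adjusted p = 0.0553) were called and Ddit4 was added (0.0424), against 5.18% of all genes. Without CD mouse 2 all 6 were called, against 10.4% of all genes. Under a filter of at least 10 counts in every library the calls of Ero1l, Car9 and Bnip3l ended, at adjusted p from 0.0569 to 0.058, and 3 calls were left, against 1.28% of all genes.

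In all 6 genes of mitochondria and their turnover both HFD libraries lay above both CD libraries, against 32.2% of all tested genes. Of the 6, 3 were called higher, against 2.61% of all tested genes: Bnip3, Bnip3l and Ak4. Bnip3 encodes a receptor of the outer mitochondrial membrane that hands mitochondria to autophagosomes, and lies on chromosome 7 from 138890836 to 138909519 (GRCm38, minus strand). It had 48.6 and 50.1 CPM in HFD mice 1 and 2, against 15.5 and 20.4 CPM in CD mice 1 and 2. The HFD mice thus lay close together and well above both CD mice, with a log2 fold change of 1.46 (SE 0.18, edgeR adjusted p = 0.0136). Bnip3l, also called Nix, encodes its relative, which clears mitochondria from maturing red blood cells, and lies on chromosome 14 from 66985239 to 67008877. Its levels were 79.4 and 76.3 CPM in the HFD mice, against 41.9 and 51.5 CPM in the CD mice. The groups did not overlap, and the difference was smaller than that of Bnip3, at a log2 fold change of 0.74 (SE 0.16, edgeR adjusted p = 0.0403). Ak4 encodes an adenylate kinase of the mitochondrial matrix, on chromosome 4 from 101419277 to 101466995. Of the called genes it had the closest replicates, with 43.6 and 45.3 CPM in the HFD mice, against 25.0 and 24.2 CPM in the CD mice (log2 fold change 0.85, SE 0.14, edgeR adjusted p = 0.0226).

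The other mitochondrial genes had values in the same direction and were not called. Higd1a, which encodes a small protein of the inner membrane linked to the respiratory chain, had 10.4 and 12.3 CPM in the HFD mice, against 7.43 and 7.26 CPM in the CD mice (log2 fold change 0.62, edgeR adjusted p = 0.0962). Fam162a, a HIF-1 target implicated in hypoxic cell death, had 36.0 and 49.2 CPM in the HFD mice, against 31.4 and 26.9 CPM in the CD mice (edgeR adjusted p = 0.121). In both genes the HFD mice lay above the CD mice, but the HFD mice stood apart from each other in Fam162a. Pdk1, the kinase that shuts pyruvate out of the citric acid cycle, had a log2 fold change of 0.33 (SE 0.17, edgeR adjusted p = 0.226).

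Several of these genes have near-identical pseudogenes, to which reads could have been assigned in the counting. A search of the GENCODE transcripts found same-strand pseudogenes of at least 95% identity over at least 200 bases for 5 of the 30 genes. For Higd1a the copy Gm9790 held more reads than the gene, 1879 and 2093 counts in the HFD mice, against 1148 and 1260 counts in the CD mice, where Higd1a itself had 388 and 471 against 241 and 270 counts. Bnip3l-ps held 1106 and 1616 counts in the HFD mice, against 987 and 1029 counts in the CD mice, and so stood at 27.1 to 42.1% of the reads of gene and copy together. The 3 copies of Bnip3 together held 680 and 955 counts in the HFD mice, against 366 and 472 counts in the CD mice, and 1 copy of Ak4 held 16.9 to 19.2% of the reads of gene and copy. With the copies added to their gene, Bnip3 kept a log2 fold change of 1.245 (edgeR adjusted p = 0.0154) and Ak4 one of 0.85 (adjusted p = 0.0222). In that count Bnip3l was no longer called (log2 fold change 0.59, adjusted p = 0.0527), while Higd1a was (0.60, adjusted p = 0.0473), so that 6 of the 30 were called higher, against 2.6% of all genes. The copies of Mif held 39 to 71 counts per library beside 4988 to 8104 of the gene.

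**Figure D2:**
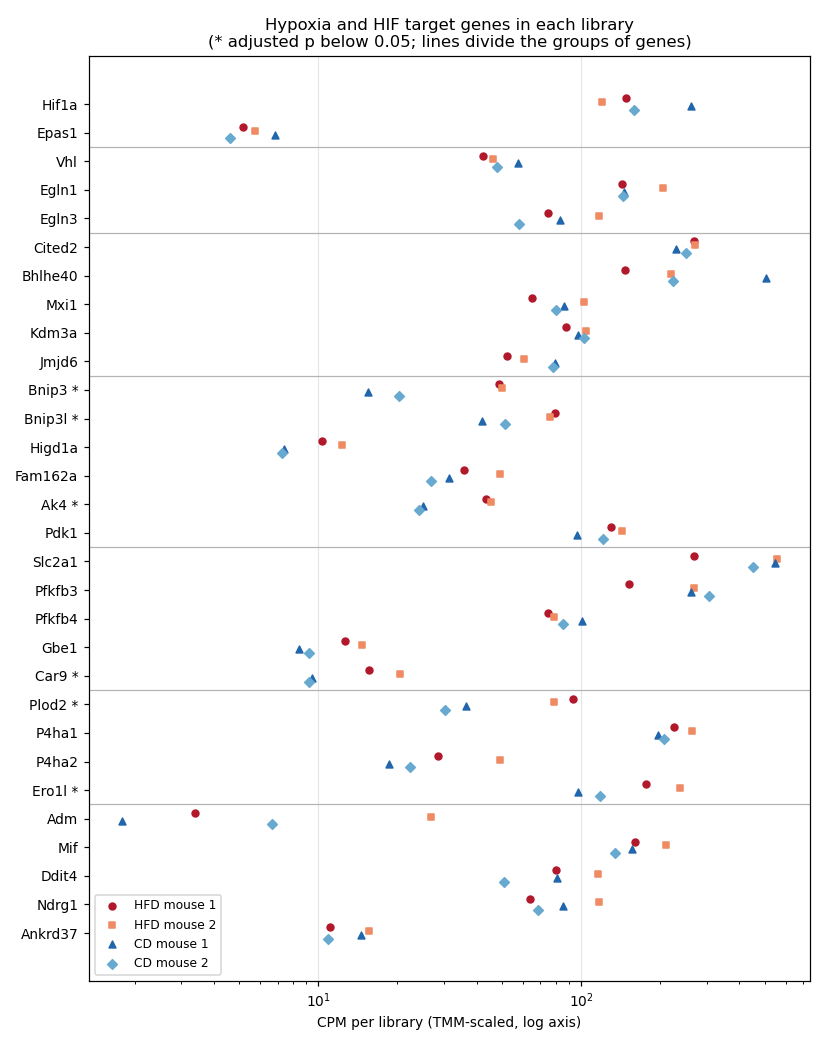
CPM of each of the 30 genes (rows) in each library, on a log axis, with the 4 mice as separate symbols, an asterisk for called genes and lines between the groups of genes. In the block from Bnip3 to Pdk1 and in that from Plod2 to Ero1l both HFD symbols lie to the right of both CD symbols in every row. This separation held in 32.2% of all tested genes.

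Enzymes that modify collagen or fold proteins in the endoplasmic reticulum showed the same separation of the diets in 4 of 4 genes, against 32.2% of all tested genes. Of the 4, 2 were called higher, against 2.61% of all tested genes. Plod2 encodes the lysyl hydroxylase that prepares collagen for stable cross-links, on chromosome 9 from 92542223 to 92608428. It had 92.9 and 78.5 CPM in HFD mice 1 and 2, against 36.4 and 30.2 CPM in CD mice 1 and 2. Both HFD values were above 2 times either CD value, and the log2 fold change was 1.36 (SE 0.17, edgeR adjusted p = 0.0139). Ero1l encodes the oxidase that renews disulphide bonds in secreted proteins, on chromosome 14 from 45283087 to 45318771. Its levels were 176 and 237 CPM in the HFD mice, against 97.7 and 118 CPM in the CD mice (log2 fold change 0.93, SE 0.20, edgeR adjusted p = 0.0403). The HFD mice differed from each other more than the CD mice did, without reaching the CD values.

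P4ha1 and P4ha2 encode catalytic subunits of prolyl 4-hydroxylase, which stabilises the collagen triple helix. P4ha2 had 28.6 and 49.2 CPM in the HFD mice, against 18.5 and 22.3 CPM in the CD mice, and was not called (log2 fold change 0.93, SE 0.27, edgeR adjusted p = 0.0801). P4ha1, the more abundant subunit, had 226 and 265 CPM in the HFD mice, against 196 and 206 CPM in the CD mice (log2 fold change 0.28, edgeR adjusted p = 0.259). Per kilobase of exon, P4ha1 stood at 11.98 and 8.16 times P4ha2 in the HFD mice, against 16.1 and 14.0 times in the CD mice. Of 10 fibroblast markers, which macrophages express little, edgeR called 5 higher and 0 lower, against 2.61% and 7.91% of all tested genes. Fap lay lower in the HFD mice, at 0.801 and 0.599 CPM, against 1.70 and 1.02 CPM in the CD mice, and was not called. Thy1 overlapped between the diets. The 10 markers summed to 2056 and 2043 CPM in the HFD mice, against 1041 and 780.3 CPM in the CD mice, of which Col3a1 made up 81.0% on average, and none was at 0 in both HFD mice. Their part in the collagen enzyme result was not tested.

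Of the genes of glucose, glycogen and pH, only Car9 was called. Car9 encodes carbonic anhydrase IX, a membrane enzyme that moves acid out of hypoxic cells and a widely used marker of HIF-1 activity. It lies on chromosome 4 from 43506966 to 43513729, and had 15.6 and 20.4 CPM in the HFD mice, against 9.49 and 9.19 CPM in the CD mice (log2 fold change 0.95, SE 0.20, edgeR adjusted p = 0.0405). The 10 epithelial markers summed to 39.7 and 46.3 CPM in the HFD mice, against 161 and 125 CPM in the CD mice, of which Cdh1 made up 76.7% on average. Krt8, Krt18 and Krt19 had at most 3 counts in either HFD library. In CD mice 1 and 2 Krt8 had 2.31 and 16.2 CPM, Krt18 2.13 and 7.85 CPM and Krt19 2.71 and 12.6 CPM. These keratins were thus higher in CD mouse 2, whereas Cdh1, at 144 and 57.0 CPM, was higher in CD mouse 1. The part of carcinoma cells in the level of Car9 was not tested. Gbe1, the glycogen branching enzyme, had 12.7 and 14.6 CPM in the HFD mice, against 8.48 and 9.22 CPM in the CD mice (log2 fold change 0.63, edgeR adjusted p = 0.0861).

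Slc2a1 encodes the main glucose transporter of activated macrophages and was the second of the 30 genes in counts per kilobase. It had 269 and 558 CPM in HFD mice 1 and 2, against 546 and 449 CPM in CD mice 1 and 2. The groups overlapped, and HFD mouse 1 stood apart below the other mice (log2 fold change -0.27, SE 0.34, edgeR adjusted p = 0.627). Pfkfb3 and Pfkfb4 encode the enzymes that set fructose 2,6-bisphosphate, the main activator of glycolysis, and had log2 fold changes of -0.43 (adjusted p = 0.331) and -0.27 (adjusted p = 0.262).

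The transcription factor subunits themselves were not called in either direction. Hif1a encodes HIF-1 alpha, whose amount is set mainly by protein stability, and lies on chromosome 12 from 73901375 to 73947530. Hif1a had 148 and 120.0 CPM in the HFD mice, against 263 and 159 CPM in the CD mice. Both HFD values lay below both CD values, but the CD mice differed from each other 1.65-fold (log2 fold change -0.65, SE 0.26, edgeR adjusted p = 0.153). Without CD mouse 2 it was called lower (log2 fold change -0.98, edgeR adjusted p = 0.00766), as were 13.7% of all genes, and without CD mouse 1 its log2 fold change was -0.25 (adjusted p = 0.421). Epas1, which encodes HIF-2 alpha, was the lowest of the 30 genes per kilobase, with 5.15 and 5.73 CPM in the HFD mice, against 6.84 and 4.60 CPM in the CD mice (log2 fold change -0.07, edgeR adjusted p = 0.884). Per kilobase of exon Hif1a stood at 27.2 and 19.8 times Epas1 in the HFD mice, against 36.4 and 32.8 times in the CD mice, with no overlap.

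Genes of oxygen sensing and HIF degradation showed overlapping or nearly overlapping diets, and edgeR called 0 of 3 (0 also at an unadjusted p below 0.05, and 0 by DESeq2). Vhl, the substrate receptor of the ligase that degrades HIF alpha subunits, had 42.3 and 46.0 CPM in the HFD mice, against 57.4 and 47.8 CPM in the CD mice (log2 fold change -0.25, SE 0.16, edgeR adjusted p = 0.313). Egln1, the main HIF prolyl hydroxylase, had 143 and 206 CPM in the HFD mice, against 146 and 144 CPM in the CD mice (adjusted p = 0.404). Egln3, a hydroxylase gene that HIF induces as feedback, had 74.7 and 117 CPM in the HFD mice, against 82.9 and 58.2 CPM in the CD mice (adjusted p = 0.305). In both hydroxylase genes HFD mouse 2 held the highest value while HFD mouse 1 lay just below both CD mice in Egln1 and between them in Egln3. A p that misses the threshold does not show that the diets are alike in these genes.

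Among transcriptional regulators and histone demethylases, edgeR called 0 of 5. At an unadjusted p below 0.05, 2 were lower, against 17.7% of all tested genes, and DESeq2 called 1 lower, against 10.9%. Bhlhe40 encodes a repressor that low oxygen and inflammatory signals both induce. It had 147 and 219 CPM in the HFD mice, against 504 and 224 CPM in the CD mice, so that HFD mouse 2 and CD mouse 2 were nearly level and CD mouse 1 stood apart (log2 fold change -0.99, SE 0.40, edgeR adjusted p = 0.152). Without CD mouse 2 Bhlhe40 was called lower (log2 fold change -1.46, edgeR adjusted p = 0.00618), and without CD mouse 1 its log2 fold change was -0.30 (adjusted p = 0.483). CD mouse 1, highest in both Hif1a and Bhlhe40, was also highest in the sum of the 8 neutrophil markers. That sum was 86.4 and 87.4 CPM in the HFD mice, against 259.6 and 117 CPM in the CD mice, and Csf3r made up 67.9% of it on average. Ly6g went the other way between the CD mice, at 0.308 and 0.807 CPM in CD mice 1 and 2, and was at 0 in both HFD mice. The 5 monocyte markers, none at 0, summed to 982 and 574 CPM in the HFD mice, against 1321 and 564 CPM in the CD mice. These markers disagreed: Ccr2, which made up 47.4% of the sum on average, and Vcan were highest in HFD mouse 1. Ly6c2, Chil3 and Plac8 were highest in CD mouse 1. The part of neutrophils and monocytes in the values of Hif1a and Bhlhe40 was not tested. Jmjd6, an iron-dependent oxygenase, had 52.2 and 60.6 CPM in the HFD mice, against 79.3 and 78.0 CPM in the CD mice (log2 fold change -0.48, SE 0.15, edgeR adjusted p = 0.0861). Cited2 encodes a protein that competes with HIF-1 alpha for the coactivators CBP and p300, and had 268 and 272 CPM in the HFD mice, against 230.4 and 251 CPM in the CD mice (adjusted p = 0.469). Kdm3a and Mxi1, a demethylase gene and a Myc antagonist gene that HIF induces, had log2 fold changes of -0.06 and 0.0032.

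Of 5 secreted or stress-induced genes edgeR called 0 (0 at an unadjusted p below 0.05, and 0 by DESeq2). Mif, a cytokine gene, was the most abundant of the 30 per kilobase, at 222 CPM per kilobase averaged over the 4 libraries, against 130 in Slc2a1 and 104 in Cited2. It had 160.2 and 211 CPM in the HFD mice, against 156 and 134 CPM in the CD mice (log2 fold change 0.35, edgeR adjusted p = 0.249). Ddit4 encodes an inhibitor of mTORC1 that hypoxia and other stresses induce. Its levels were 80.3 and 116 CPM in the HFD mice, against 81.0 and 50.9 CPM in the CD mice, with HFD mouse 1 and CD mouse 1 nearly level (log2 fold change 0.57, SE 0.28, edgeR adjusted p = 0.213). Adm encodes the vasodilator peptide adrenomedullin and was chosen for mention after its values were seen. It had 3.39 and 26.7 CPM in the HFD mice, against 1.79 and 6.67 CPM in the CD mice, by ratio the widest gap between mice of 1 diet among the 30 genes. Ndrg1 and Ankrd37, both strongly induced by hypoxia in many cell types, had log2 fold changes of 0.23 and 0.08.

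The mice of 1 diet differed in much of the list. HFD mouse 2 was above HFD mouse 1 in 27 of the 30 genes, with a median log2 ratio of 0.33, against 47.8% of the 10312 tested genes whose mean level on the log2 CPM scale was 3 or more and that had counts in every library; their median was -0.01. The exceptions were Hif1a, Plod2 and Bnip3l. In 7 genes the HFD mice differed by at least 1.5-fold with mouse 2 higher: Adm 7.88-fold, Slc2a1 2.07-fold, Ndrg1 1.83-fold, Pfkfb3 1.77-fold, P4ha2 1.72-fold, Mxi1 1.57-fold and Egln3 1.57-fold. Bnip3, Bnip3l and Ak4 differed by no more than 1.04-fold between the same mice. The CD mice differed less in 1 direction, with CD mouse 1 above CD mouse 2 in 19 of the 30 genes and a median log2 ratio of mouse 2 over mouse 1 of -0.04. CD mouse 1 was at least 1.5-fold above CD mouse 2 in 3 genes, Bhlhe40 (2.25-fold), Hif1a (1.65-fold) and Ddit4 (1.59-fold). In 15 of the 30 genes the larger of the gaps between mice of 1 diet exceeded the log2 fold change of the diets, a count not set against all tested genes. None of the 6 called genes was among them. The test weighs the diet difference against the spread between mice, so this absence follows largely from the calls. These ratios compare single mice and have no test.

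**Figure D3:**
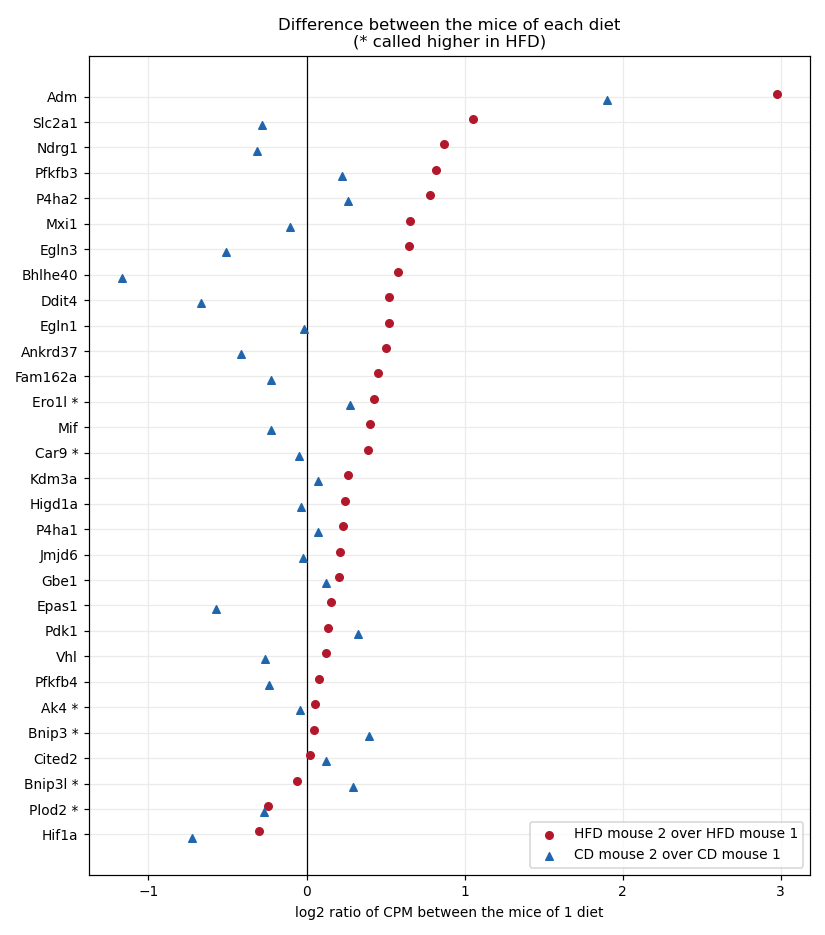
Log2 ratio of CPM between the mice of 1 diet (x axis) for each of the 30 genes, as red circles for HFD mouse 2 over mouse 1 and blue triangles for CD mouse 2 over mouse 1. Red circles lie right of 0 in 27 rows, up to 2.98 in Adm, while the triangles fall on both sides.

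The relation of Bnip3 to its paralogue also differed between the diets. Per kilobase of exon Bnip3 stood at 1.04 and 1.12 times Bnip3l in the HFD mice, against 0.629 and 0.673 times in the CD mice, without overlap. Egln1 over Egln3 overlapped, at 1.42 and 1.30 in the HFD mice, against 1.30 and 1.83 in the CD mice, as did Pfkfb3 over Pfkfb4, at 1.32 and 2.21 against 1.69 and 2.33. With 2 mice a diet an exact permutation test of such a ratio could not reach the threshold, and none was run.

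Some of the 30 genes lie close to others. Ufsp2 overlaps Ankrd37 on the other strand with 32.6 and 36.0 CPM in the HFD mice, against 21.9 and 25.6 CPM in the CD mice, more than Ankrd37 itself, and whether strand was used in the counting is not given in the sources used here. Ccdc107 ends 11.0 kb upstream of Car9 on the same strand, with 23.9 and 25.7 CPM in the HFD mice, against 16.7 and 18.1 CPM in the CD mice. Genes that overlap Bnip3 and Plod2 on the other strand had less than 1 CPM.

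Other genes of the pathway, in lists chosen with earlier results of these data known, were called in both directions. Of 12 tested genes of the HIF machinery, edgeR called 0 higher and 3 lower, against 2.61% and 7.91% of all tested genes. At an unadjusted p below 0.05, 3 were higher and 4 lower, against 13.6% and 17.7%, and DESeq2 called 1 higher and 3 lower, against 5.87% and 10.9%. Crebbp and Ep300 encode CBP and p300, the acetyltransferases that HIF alpha subunits recruit. Crebbp had 105 and 101 CPM in the HFD mice, against 205 and 190.5 CPM in the CD mice, and so fell by 0.94 on the log2 scale (SE 0.14, edgeR adjusted p = 0.0204). Ep300 had 184 and 170.4 CPM in the HFD mice, against 295 and 332 CPM in the CD mice (log2 fold change -0.82, SE 0.15, adjusted p = 0.0309). In both genes the diets were far apart and the replicates close. Siah2 encodes a ubiquitin ligase that degrades EGLN proteins, and had 34.9 and 38.3 CPM in the HFD mice, against 78.3 and 58.4 CPM in the CD mice (log2 fold change -0.90, adjusted p = 0.037). The uncalled genes of smallest p were Rbx1 and Eloc, subunits of the VHL ligase, and Siah1a, with log2 fold changes of 0.59, 0.79 and 0.63 (edgeR adjusted p = 0.0717, 0.0865 and 0.0861). Calls of Crebbp, Ep300 and Siah2 ended without either HFD mouse (adjusted p from 0.113 to 0.195), with log2 fold changes between -0.97 and -0.77.

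Of 24 further HIF targets tested, 3 (12.5%) were called higher, against 2.61% of all tested genes, and 1 (4.17%) lower, against 7.91%. At an unadjusted p below 0.05, 9 were higher and 6 lower, against 13.6% and 17.7% of all tested genes. DESeq2 called 6 higher and 2 lower, against 5.87% and 10.9%. Cp encodes ceruloplasmin, a copper ferroxidase that macrophages use to export iron, and had 28.6 and 19.5 CPM in the HFD mice, against 5.39 and 9.33 CPM in the CD mice (log2 fold change 1.71, SE 0.32, edgeR adjusted p = 0.0318). Lox encodes the lysyl oxidase that cross-links collagen, the step after that of Plod2. It had 10.7 and 17.9 CPM in the HFD mice, against 2.99 and 5.48 CPM in the CD mice (log2 fold change 1.75, SE 0.38, edgeR adjusted p = 0.0415). The sum of the fibroblast markers given above was also higher in the HFD mice, and their part in the level of Lox was not tested. Tmem45a rose to 2.56 and 2.29 CPM in the HFD mice, against 0.801 and 0.941 CPM in the CD mice (adjusted p = 0.0416). Wsb1, part of a ubiquitin ligase, fell by 0.62 on the log2 scale to 151 and 161 CPM in the HFD mice, against 231 and 249 CPM in the CD mice (adjusted p = 0.0476). The uncalled genes of smallest p were Trf (log2 fold change 0.91, adjusted p = 0.0613), which encodes transferrin, Flt1 (-2.54, 0.0664), a receptor of VEGF with 149.9 CPM in CD mouse 1 and 31.7 CPM in CD mouse 2, and Car12 (-1.93, 0.0678), at less than 1 CPM throughout. Flt1 was called lower without CD mouse 1 (-1.04, adjusted p = 0.0315) and without CD mouse 2 (-3.27, 0.000206). The calls of Cp, Lox, Tmem45a and Wsb1 ended without either HFD mouse (adjusted p from 0.0684 to 0.301), with no change of sign.

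Of 16 glycolytic HIF targets tested, 2 (12.5%) were called lower, against 7.91% of all tested genes, and 0 higher, near the 2.61% of all tested genes. At an unadjusted p below 0.05, 3 were lower and 1 higher, against 17.7% and 13.6% of all tested genes. DESeq2 called 3 lower and 0 higher, against 10.9% and 5.87%, and the median log2 fold change was -0.16. Pfkp, a phosphofructokinase gene, had 108 and 141 CPM in the HFD mice, against 369 and 269.6 CPM in the CD mice (log2 fold change -1.36, SE 0.22, edgeR adjusted p = 0.0239). Slc2a3, a glucose transporter gene, had 6.33 and 7.51 CPM in the HFD mice, against 22.9 and 14.2 CPM in the CD mice (log2 fold change -1.42, adjusted p = 0.033). Pgam1 (0.50, edgeR adjusted p = 0.0747), Gapdh (-0.82, 0.0912) and Aldoc (-0.35, 0.191) were the uncalled genes of smallest p. Gapdh stood at only 17.6 to 44.1 CPM in these counts. Pseudogene copies were searched for the 30 genes only, so reads assigned to copies of the genes in this list were not examined. As in the 30 genes, HFD mouse 2 lay above HFD mouse 1, here in 15 of 16 genes with a median log2 ratio of 0.42. The calls of Pfkp and Slc2a3 ended without either HFD mouse (adjusted p from 0.0615 to 0.178), with log2 fold changes between -1.56 and -1.18.

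Of 16 tested genes that act beside Bnip3 and Bnip3l in mitophagy, 1 (6.25%) was called lower, against 7.91% of all tested genes, and 0 higher, against 2.61%, so both counts were near those over all genes. Both at an unadjusted p below 0.05 and by DESeq2, 2 were lower and 0 higher. Over all tested genes 17.7% were lower and 13.6% higher at that p, and DESeq2 called 10.9% lower and 5.87% higher. The median log2 fold change of the 16 was -0.02. Ulk1, the kinase that starts autophagy, had 41.6 and 46.5 CPM in the HFD mice, against 81.3 and 64.9 CPM in the CD mice (log2 fold change -0.73, SE 0.17, edgeR adjusted p = 0.0467). Its call ended without either HFD mouse and without CD mouse 1 (adjusted p from 0.062 to 0.264). Map1lc3b, the autophagosome protein that BNIP3 binds, had 67.9 and 74.1 CPM in the HFD mice, against 113 and 96.6 CPM in the CD mice (adjusted p = 0.0665), and Gabarapl1 and Fundc1 had log2 fold changes of -0.40 and 0.59 (adjusted p = 0.2 and 0.222).

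**Figure D4:**
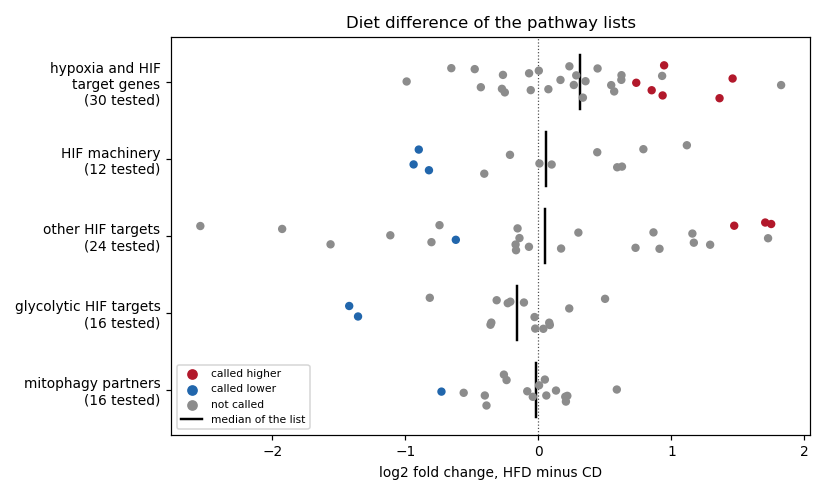
Log2 fold change (HFD minus CD, x axis) of every tested gene in the 30-gene list and in the other pathway lists, with called genes in red (higher) or blue (lower) and a black line at each median. The medians lie at 0.31 for the 30 genes and between -0.16 and 0.05 for the others.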

How the data were processed

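RNA of sorted macrophages was sequenced in 4 libraries, 2 per diet, per the labels from polyA RNA with a stranded kit. The authors deposited raw read counts per Ensembl gene and library. Tools listed in the submitters' processing notes are BWA 0.7.12, cutadapt 1.15, DESeq2 1.24.0 and FastQC 0.11.5, with builds GRCm38 and mm10; which program counted reads, with which strand setting and annotation, is not given in the sources used here. Each title names a mouse, so a library was taken as an animal. The p-values weigh the diet difference against the spread between these libraries, which edgeR estimates for each gene with information from all tested genes.

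Symbols were matched for 53274 of 53379 identifiers. Positions and exon lengths are those of GENCODE M21, whose identifier version matched for 50604, and coordinates are given only for those. Genes passing filterByExpr (minimum count 10, minimum total 15) entered the test in edgeR 4.0.16 (R 4.3.3), diet as the only term, TMM scaling and robust dispersions; the SE is the log2 fold change over the square root of F. The steps were run on simulated counts with the same spread for every gene. That run did not cover the smaller folds, or the wide gaps between mice, seen in some of the genes here. Copies were found with BLAST 2.17.0. DESeq2 1.42.0, DESeq2 size factors, other filters, a replicate block and leaving out each mouse were tried, and, added after seeing the data, a crossed pairing and adding pseudogene copies.

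The 30 genes and all lists were chosen with earlier results of these data known. Values of each library are given for called genes, Hif1a, Epas1, Vhl, Egln1 and Egln3, the 8 uncalled genes of smallest p and the 5 of highest level per kilobase, and, of the other lists, for called genes, with up to 3 uncalled genes of smallest p named; any other gene given in full was picked afterwards.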

Additional observations from a re-analysis of the deposited data

How the results depend on the processing

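With 2 mice per diet the spread between mice rests on few values, and depth was not varied. Over all genes, leaving out 1 mouse gave 17 to 1922 genes higher and 130 to 2530 lower in the HFD libraries. Among the 30 hypoxia genes it gave 0 to 6 higher and 0 to 2 lower (Hif1a and Bhlhe40, without CD mouse 2), and a median log2 fold change of 0.11 to 0.52. Leaving out 1 mouse gave 0 to 6 called genes in the HIF machinery, 0 to 9 among other HIF targets, 0 to 2 among glycolytic targets and 0 to 2 among mitophagy genes. With no filter on low counts 1552 genes were higher and 2231 lower over 30068 genes, and 5 genes of the HIF machinery, 8 other targets, 4 glycolytic targets and 2 mitophagy genes were called. With at least 10 counts in every library, over 15892 genes, 204 were higher and 640 lower, 3 of the 30 hypoxia genes were higher, and 1 other target and 0 mitophagy genes were called. DESeq2's own test called 1082 genes higher, 1 of the 30 lower (Bhlhe40), 8 other targets and 2 mitophagy genes. The cause of these moves was not tested, beyond the change in genes or mice that each setting makes.

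The mouse numbers were not shown to pair mice across diets: the difference between mouse 1 and mouse 2 correlated at -0.119 between the diets over 18422 genes. With a replicate block 567 genes (3.08%) were higher and 1481 (8.04%) lower, 0 mitophagy genes and 7 of the 30 hypoxia genes were called, Bnip3l (adjusted p = 0.0505) no longer and P4ha2 (0.0354) and Adm (0.0206) newly among them. Among the genes named in the other lists, the block ended the calls of Tmem45a (edgeR adjusted p = 0.0511), Wsb1 (0.0825) and Ulk1 (0.0625). It added a call of Flt1 (0.0133). Over all the other HIF targets 6 were called, against 4 without the block, so further genes not named here also gained calls. A crossed pairing of the mice, chosen after that check, called 909 genes (4.93%) higher and 1546 (8.39%) lower. Of the 30 hypoxia genes it called 1 lower and 6 higher, with 1 of the 6 calls lost and 1 gained. It also called 2 mitophagy genes.

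The sign of Mxi1, near 0 throughout, turned to -0.0097 with DESeq2 size factors and in DESeq2's own test, to -0.020 with at least 10 counts in every library, and to -0.032 with the block and with the crossed block. When 1 mouse was left out it ran from -0.36 to 0.29, and signs also turned in Egln1 (-0.018 to 0.50), Ndrg1 (-0.27 to 0.60), Adm (-0.32 to 3.07), Ankrd37 (-0.20 to 0.30), Kdm3a (-0.19 to 0.067), Epas1 (-0.33 to 0.24) and Slc2a1 (-0.89 to 0.17). None of these genes was called in the main test with all mice, though Adm was called with the replicate block. Scaling with DESeq2 size factors left the 6 calls as they were.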
